A study of Mus musculus with 36 samples.

Results

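The olfactory neuron lineage depends on a small set of transcription factors, and 9 genes of this set were followed here: the basic helix-loop-helix factors Neurog1 and Neurod1, the LIM homeodomain factor Lhx2 with its cofactor Ldb1, the homeodomain factor Emx2, and the EBF factors Ebf1, Ebf2, Ebf3 and Ebf4. The genes were listed by name, with no threshold on their values, from 24690 genes in the series, and all 9 were listed in every tissue. RNA-seq levels came from the main olfactory epithelium (MOE), the vomeronasal organ (VNO) and the olfactory bulb (OB) of C57BL/6 mice aged 6 months, with 12 libraries per tissue. The labels name no genotype beyond the strain. The paper states that all of these tissues were dissected from each mouse, so the tissues are not from separate animals. In each tissue, 3 libraries were made from females that had lived from weaning with females alone (SF), 3 from males that had lived with males alone (SM), and 3 each from females and males that had shared cages (CF and CM). Each library was a pool of RNA from several mice of whole dissected tissue, so the spread between libraries is a spread between pools, and fewer cells of a type cannot be told apart from less RNA per cell.

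In the olfactory lineages of the nose, basal progenitors pass through a stage that expresses Neurog1 and then Neurod1 before they become sensory neurons. Lhx2 and the EBF proteins act in immature and mature sensory neurons, where sites for both kinds of factor lie in the enhancers and promoters of many odorant receptor genes. LDB1 does not bind DNA itself: it joins LIM proteins such as LHX2 and thereby helps distant enhancers meet. Emx2 is needed in the MOE for the choice of odorant receptors, and outside the nose Ebf1 is known as a factor of B cells, fat cells and bone.

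The levels are FPKM values (fragments scaled to the length of the transcript and to the mapped fragments of the library), summed over the transcript entries of a gene. Ebf2 was the most abundant of the 9 genes in MOE, Ldb1 in VNO and OB. In MOE the order of mean FPKM was Ebf2 at 26.3 ± 3.69 (SD, n = 12), Lhx2 at 16.05 ± 2.31, Ebf1 at 14.1 ± 2.12, Ebf4 at 12.7 ± 2.04, Ldb1 at 10.95 ± 1.44, Ebf3 at 10.1 ± 1.47, Emx2 at 2.27 ± 0.385, Neurod1 at 0.912 ± 0.197 and Neurog1 at 0.157 ± 0.0810. The ranges of the libraries overlapped between each pair of neighbors from Lhx2 down to Ebf3, so these 5 genes were not separated from the next in order, whereas Ebf2 lay above all others and Emx2, Neurod1 and Neurog1 each lay apart. The VNO order was Ldb1 at 9.44 ± 0.554, Ebf1 at 8.72 ± 0.794, Ebf2 at 4.96 ± 0.918, Lhx2 at 4.87 ± 0.621, Ebf3 at 3.75 ± 0.560, Emx2 at 3.53 ± 0.640, Ebf4 at 0.691 ± 0.124, Neurod1 at 0.315 ± 0.0915 and Neurog1 at 0.0604 ± 0.0455. There Ldb1 overlapped with Ebf1, and Ebf2, Lhx2, Ebf3 and Emx2 overlapped each with the next. In OB only Ldb1 at 9.71 ± 1.23 and Lhx2 at 3.29 ± 0.275 were above 1 FPKM on average, followed by Neurod1 at 0.911 ± 0.228, Ebf4 at 0.832 ± 0.126, Ebf1 at 0.524 ± 0.0804, Emx2 at 0.357 ± 0.0983, Ebf2 at 0.174 ± 0.0657 and Ebf3 at 0.154 ± 0.0548, with each neighbor from Neurod1 to Ebf3 overlapping the next.

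**Figure D1:**
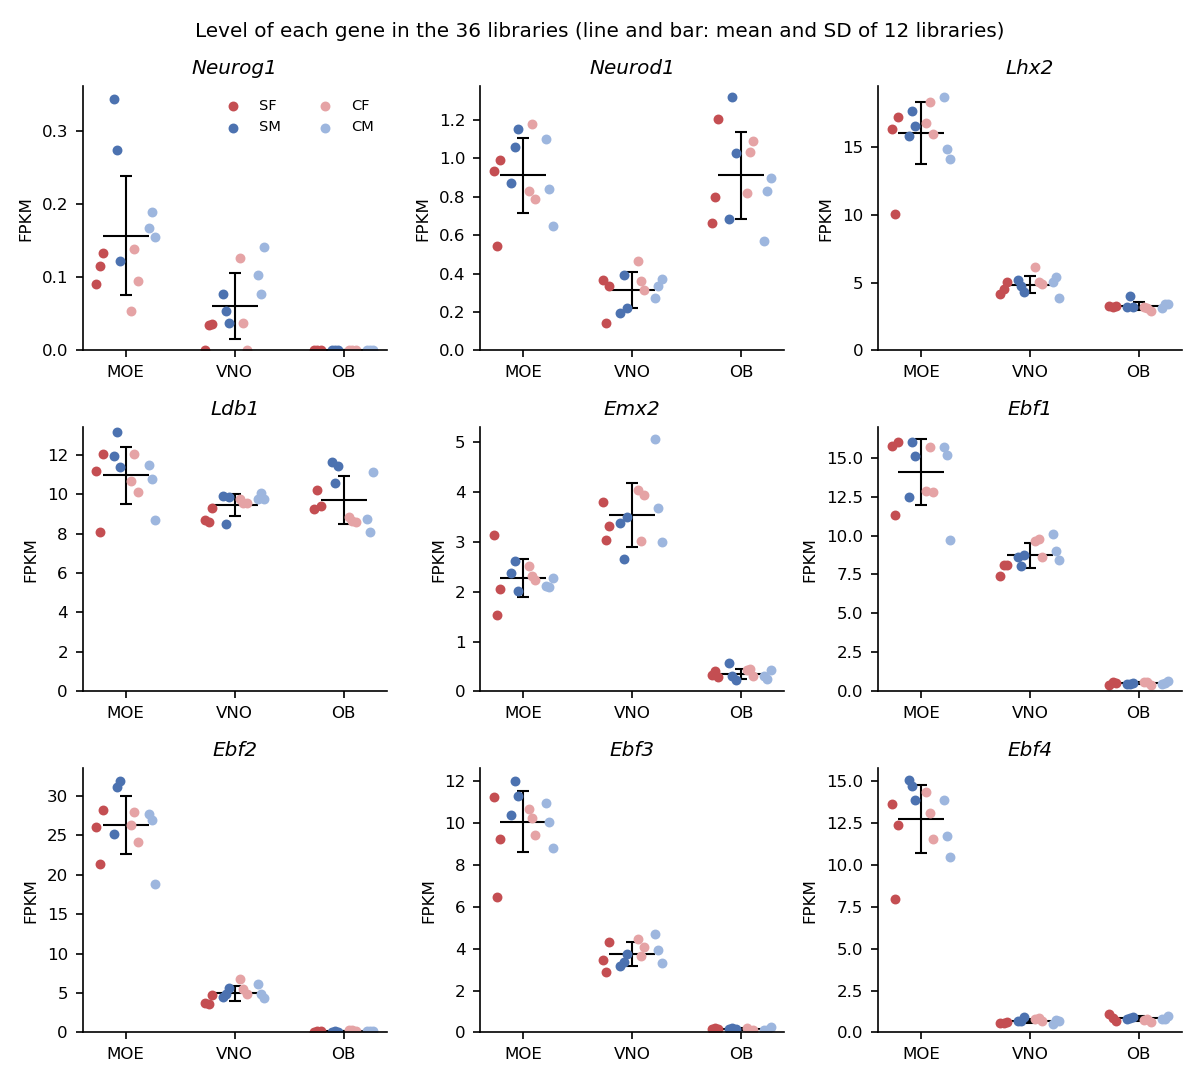
FPKM (vertical axes, linear, starting at 0) of each of the 9 genes in the 36 libraries, grouped by tissue and colored by group, with the mean and SD of 12 libraries per tissue in black. Ebf2, Ebf3, Ebf4 and Lhx2 stand higher in all 12 MOE libraries than in any VNO or OB library, while Ldb1 overlaps across the 3 tissues.

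The tissues were checked against markers. The summed FPKM of 10 genes of mature olfactory sensory neurons ranged from 1639 to 2917 in MOE, against 128 to 199 for VNO and 95.2 to 136 for OB, and the sum of 6 vomeronasal genes from 105 to 132 in VNO against 15.6 to 21.7 in MOE. The olfactory marker protein gene Omp had a mean FPKM of 983 in MOE, 101 in VNO and 35.1 in the bulb, and Gap43, a gene of growing axons, had 18.7, 5.69 and 35.1. Bulb projection neuron markers summed to 66.3 to 84.3 FPKM in OB and to at most 2.59 in the other tissues. The MOE libraries SF2 and CM3 (SF replicate 2 and CM replicate 3) stood apart: their mature neuron markers summed to 1901 and 1639 FPKM, against 2349 or more in the other 10. Neurod1, Lhx2, Ldb1, Ebf1, Ebf2, Ebf3 and Ebf4, 7 of the 9 genes, were lower in both of these libraries than in each of the other 10, as were 33.96% of the 13757 genes tested in MOE. The bone-forming genes were low in both too, with sums of 39.99 and 32.2 FPKM against 44.8 or more. Other lists were low in CM3 alone. CM3 was the lowest library for the sustentacular genes (2922 against 4035 or more in the others without SF2) and the pericyte genes (65.5 against 94.5 or more). SF2 lay within the range of the other 10 for both lists (4381 and 96.4 FPKM). The same held for the basal stem cell genes (SF2 23.8, CM3 16.4, others 16.8 or more) and B cell genes (4.52, 3.74, and 4.01 or more). Without both libraries the differences of the 8 members tested between MOE and each other tissue moved up by 0.04 to 0.09 on the log2 scale, and no call changed. The median of all genes tested moved up too, from 0.13 to 0.20 between MOE and VNO and from 0.09 to 0.15 between MOE and OB. The Ebf2 share of the EBF sum in MOE was then 41.5%, and the Ldb1 share on its upstream start was 53.8%. The part of these libraries' makeup in the values was not tested. Assigned fragments were estimated from the width of the deposited confidence limits. They numbered 3016524 to 5902159 per MOE library, 3373400 to 6779893 per VNO library and 3592962 to 6437263 per OB library. These estimates lie below the aligned pairs that the paper lists for every library. By this estimate CM3 had the fewest fragments of the MOE libraries. In the paper, however, CM3 has the most input read pairs of the MOE libraries and the lowest percentage of aligned reads.

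Ldb1 and Lhx2 are each listed as entries with different transcription starts, and the promoters of these starts are shown because the use of the starts differed between libraries. On build mm9 the files place Ldb1 at chr19:46107080-46119801 and Lhx2 at chr2:38194801-38225257. The 3 entries of Ldb1 share their last base and differ in where transcription begins, with 5690 bases between the upstream and the middle start and 2551 between the middle and the downstream start. The promoter sequences below are from RefSeq on build GRCm38.p6, run from 250 bases before to 50 bases after a start, and were paired with the entries because the starts have the same spacing on both builds. Capitals mark letters that match 1 of 3 short patterns searched on both strands: CANNTG (the E-box of basic helix-loop-helix factors), CCCNNGGG (the core of an EBF site) and TAATTA (a homeodomain core).
Ldb1 upstream start, chr19:46045262-46045561, minus strand: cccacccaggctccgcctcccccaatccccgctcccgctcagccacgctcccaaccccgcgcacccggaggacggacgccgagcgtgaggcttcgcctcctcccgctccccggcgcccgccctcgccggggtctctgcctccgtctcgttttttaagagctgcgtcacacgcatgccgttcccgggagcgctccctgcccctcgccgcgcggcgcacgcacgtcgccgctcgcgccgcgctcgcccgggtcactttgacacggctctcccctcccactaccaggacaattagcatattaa
Ldb1 middle start, chr19:46039572-46039871, minus strand: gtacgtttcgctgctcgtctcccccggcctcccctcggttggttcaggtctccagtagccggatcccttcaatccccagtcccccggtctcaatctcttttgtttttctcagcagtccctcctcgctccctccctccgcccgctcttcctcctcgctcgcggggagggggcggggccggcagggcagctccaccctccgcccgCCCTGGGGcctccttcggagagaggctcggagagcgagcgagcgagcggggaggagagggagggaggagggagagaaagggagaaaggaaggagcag
Ldb1 downstream start, chr19:46037021-46037320, minus strand: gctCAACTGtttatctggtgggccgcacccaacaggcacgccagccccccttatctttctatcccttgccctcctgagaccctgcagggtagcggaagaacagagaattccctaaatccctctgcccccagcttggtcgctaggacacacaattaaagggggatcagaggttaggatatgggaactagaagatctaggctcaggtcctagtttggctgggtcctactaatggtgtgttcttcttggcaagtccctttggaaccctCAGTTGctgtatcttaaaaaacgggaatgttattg
Lhx2 upstream start, chr2:38339031-38339330, plus strand: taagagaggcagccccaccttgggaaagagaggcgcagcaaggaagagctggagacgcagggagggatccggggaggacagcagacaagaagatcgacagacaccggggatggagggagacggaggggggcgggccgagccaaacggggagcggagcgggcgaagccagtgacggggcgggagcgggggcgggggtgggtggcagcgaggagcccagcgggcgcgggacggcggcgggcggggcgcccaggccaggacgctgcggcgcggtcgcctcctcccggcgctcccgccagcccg
Lhx2 downstream start, chr2:38351058-38351357, plus strand: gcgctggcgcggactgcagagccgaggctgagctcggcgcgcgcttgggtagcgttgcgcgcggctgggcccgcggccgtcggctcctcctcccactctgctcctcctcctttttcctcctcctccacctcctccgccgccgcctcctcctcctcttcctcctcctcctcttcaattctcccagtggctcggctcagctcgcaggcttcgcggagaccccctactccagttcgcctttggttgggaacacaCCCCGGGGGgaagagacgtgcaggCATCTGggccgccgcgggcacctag

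The windows at the upstream starts of both genes held none of the 3 patterns. At the middle start of Ldb1 a single EBF core pattern began at position -47, counted from the start, and the downstream start held E-box patterns at -247 and 16. At the downstream start of Lhx2, 2 overlapping EBF core patterns began at positions 2 and 3 and an E-box at 26. Of all 32851 RefSeq promoters of this length, 72.3% held an E-box pattern, 13.7% an EBF core and 5.29% a homeodomain core. The table held 12 promoters for 8 of the 9 genes (not Ebf2), of which 6 had an E-box, 3 an EBF core (1 each of Lhx2, Ldb1 and Ebf3) and 2 a homeodomain core (Neurog1 and Emx2). For the 10 mature neuron markers 11 promoters of 7 genes were found, of which 5 held an EBF core, and for the 7 immature neuron markers 4 promoters of 3 genes, of which 0 did. These matches describe letters in a window and not bound sites.

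The total level of Ldb1 differed little between the 3 tissues, while the share of its starts differed between OB and both other tissues. Total Ldb1 ranged from 8.09 to 13.1 FPKM in MOE with a median of 11.3, from 8.46 to 10.1 in VNO with a median of 9.65, and from 8.09 to 11.6 in OB with a median of 9.32. All 3 ranges overlapped. In OB the upstream start carried 95.9% ± 8.46 (SD, n = 12) of Ldb1, against 53.2% ± 13.4 in MOE and 63.2% ± 23.0 in VNO. The OB share was 100% in 9 of 12 libraries and 72.9% in the lowest, against 0 of 12 MOE libraries at 100% and a highest MOE share of 80.2%. OB differed from MOE (permutation test over libraries, 100000 resamples, two-sided, p = 2e-05, the smallest they can give, adjusted p = 6e-05 over 3 comparisons of tissues) and from VNO (permutation p = 0.0002, adjusted p = 0.0003). MOE and VNO did not pass (permutation p = 0.21), and the VNO libraries spread from 29.4% to 100%.

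The downstream start carried 3.82 FPKM in MOE and 2.90 in VNO and was listed at 0 in 11 of the 12 OB libraries. It reached 6.87 FPKM in MOE-SM2 and was at 0 in MOE-CF2. The middle start gave means of 1.29 FPKM (MOE), 0.592 (VNO) and 0.188 (OB). Cufflinks divides reads among entries that overlap over most of their length, so an entry can be listed at 0 in one library and not in its replicate, and the shares of single libraries are less certain than the total.

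**Figure D2:**
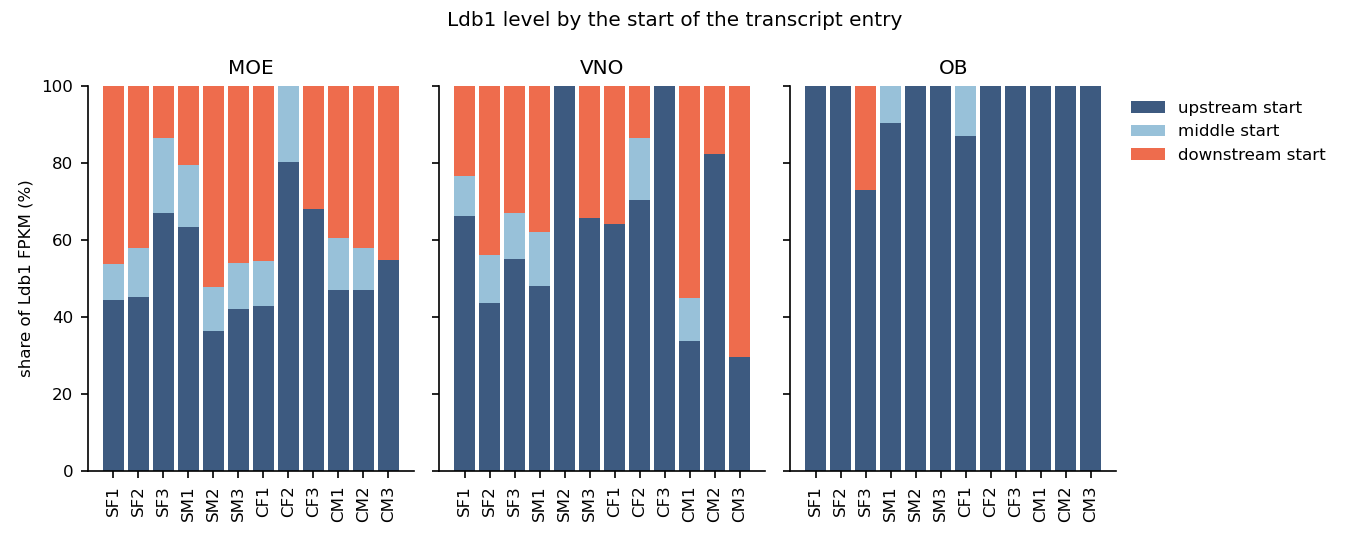
Share of Ldb1 FPKM (vertical axis, percent) that the deposited tables place on each of 3 transcript starts, 1 bar per library and 1 panel per tissue. The upstream start takes 36.2% to 80.2% in MOE, 29.4% to 100% in VNO and 72.9% to 100% in OB.

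Lhx2 fell from MOE to VNO to OB. Its lowest, median and highest FPKM were 10.04, 16.5 and 18.7 in MOE. The same 3 values were 3.86, 4.97 and 6.20 for VNO and 2.90, 3.21 and 4.04 for OB. The MOE libraries did not overlap with those of the other tissues, and VNO and OB overlapped. By limma on log2(FPKM + 0.5), the scale of every log2 difference below, Lhx2 was higher in MOE than in VNO by 1.62 (95% interval 1.47 to 1.77, adjusted p = 1.63e-18), higher in MOE than in OB by 2.12 (1.97 to 2.26, adjusted p = 6.29e-22), and higher in VNO than in OB by 0.50 (0.35 to 0.64, adjusted p = 2.59e-07). In MOE all 12 libraries placed Lhx2 on the downstream start, whose promoter is printed above with its EBF core patterns. The upstream start was above 0 in 3 VNO libraries and in 5 OB libraries, with shares of 11.95% to 16.5% and 10.2% to 18.3% of Lhx2. The 5 OB libraries were all sex-separated, and the entry was at 0 in all 6 sex-combined OB libraries. It rested on an estimated 3.88 to 12.8 fragments per OB library, this pattern was singled out after the values were seen, and it was not tested.

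Ldb1 itself differed little: it was higher in MOE than in VNO by 0.20 (95% interval 0.08 to 0.32, limma adjusted p = 0.00332) and higher than in OB by 0.16 (0.04 to 0.29, adjusted p = 0.0116), and differed by -0.03 between VNO and OB (-0.15 to 0.09, adjusted p = 0.634). Its direction depended on scaling. With quantile normalization MOE was lower than VNO by a log2 difference of -0.14 (limma adjusted p = 0.00705), and with upper quartile scaling by -0.06 (adjusted p = 0.193). VNO lay above OB by 0.31 and 0.33 under these scalings, and passed in both (limma adjusted p = 6.06e-07 and 4.86e-08). Without SF2 and CM3 the difference of MOE from VNO was 0.27.

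The EBF family showed the widest differences between tissues. Its 4 genes summed to 63.2 ± 8.40 FPKM in MOE (SD, n = 12), to 18.1 ± 2.12 in VNO and to 1.69 ± 0.214 in OB. Ebf2 (chr14:67852129-68049789 on mm9) had a lowest, median and highest level of 18.8, 26.6 and 31.9 FPKM in MOE. The same 3 values were 3.62, 4.84 and 6.72 for VNO and 0.0599, 0.190 and 0.267 for OB. The ranges of the 3 tissues were apart. Ebf2 was higher in MOE than in VNO by 2.30 on the log2 scale (95% interval 2.15 to 2.45, limma adjusted p = 6.62e-22), higher than in OB by 5.31 (5.15 to 5.46, adjusted p = 1.06e-31) and higher in VNO than in OB by 3.01 (2.85 to 3.16, adjusted p = 1.98e-25). All MOE libraries placed Ebf2 on the same entry. A further entry with no symbol lies inside the Ebf2 locus, at a mean of 5.96 FPKM in MOE, and reads of overlapping entries could be shared between them.

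Ebf4 (chr2:130121675-130196217 on mm9, a single entry) was above 1.08 FPKM in MOE libraries only, among these tissues. Its lowest, median and highest FPKM were 7.99, 13.4 and 15.1 in MOE. The same 3 values were 0.526, 0.678 and 0.943 for VNO and 0.647, 0.815 and 1.08 for OB. The lowest MOE library was above the highest of the others, and VNO and OB overlapped. The ratio of mean FPKM between MOE and VNO was 18.5 for Ebf4, against 5.31 for Ebf2, 3.30 for Lhx2, 2.68 for Ebf3 and 1.61 for Ebf1. The 10 mature olfactory neuron markers had ratios of 4.58 (Rtp1) to 98.1 (Cnga2), with 9.72 for Omp, and 5 of the 10 were above Ebf4. On the log2 scale Ebf4 was higher in MOE by 3.46 than in VNO (95% interval 3.32 to 3.61, limma adjusted p = 3.78e-27) and by 3.30 than in OB (3.16 to 3.44, adjusted p = 2.41e-27). Between VNO and OB it differed by -0.16 (-0.31 to -0.02, adjusted p = 0.0309), a call that was lost with a pseudocount of 1 (adjusted p = 0.0754) and without any 1 of 7 libraries (VNO-SM1, VNO-SM2, VNO-CF3, VNO-CM1, OB-SF1, OB-CF2 or OB-CM3; adjusted p = 0.0524 to 0.0697), and whose sign turned with upper quartile scaling (0.06).

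Ebf1 (chr11:44431602-44821598 on mm9) had a lowest, median and highest FPKM of 9.74, 15.1 and 16.03 in MOE. The same 3 values were 7.42, 8.60 and 10.1 for VNO and 0.391, 0.536 and 0.654 for OB. MOE and VNO overlapped through CM3 alone. Ebf1 was higher in MOE than in VNO by 0.65 (95% interval 0.50 to 0.79, limma adjusted p = 1.51e-09; 0.74 without SF2 and CM3), the smallest such difference of the 4 EBF genes, higher in MOE than in OB by 3.82 (3.67 to 3.96, adjusted p = 9.53e-29) and higher in VNO than in OB by 3.17 (3.02 to 3.31, adjusted p = 1.18e-26). Ebf3 (chr7:144385354-144506128 on mm9) ranged from 6.45 to 12.03 FPKM in MOE, 2.87 to 4.71 in VNO and 0.0687 to 0.242 in OB. These 3 ranges were apart, and the limma differences were 1.31 between MOE and VNO (adjusted p = 4.58e-16), 4.003 between MOE and OB (adjusted p = 7.73e-29) and 2.69 between VNO and OB (adjusted p = 2.10e-24).

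**Figure D3:**
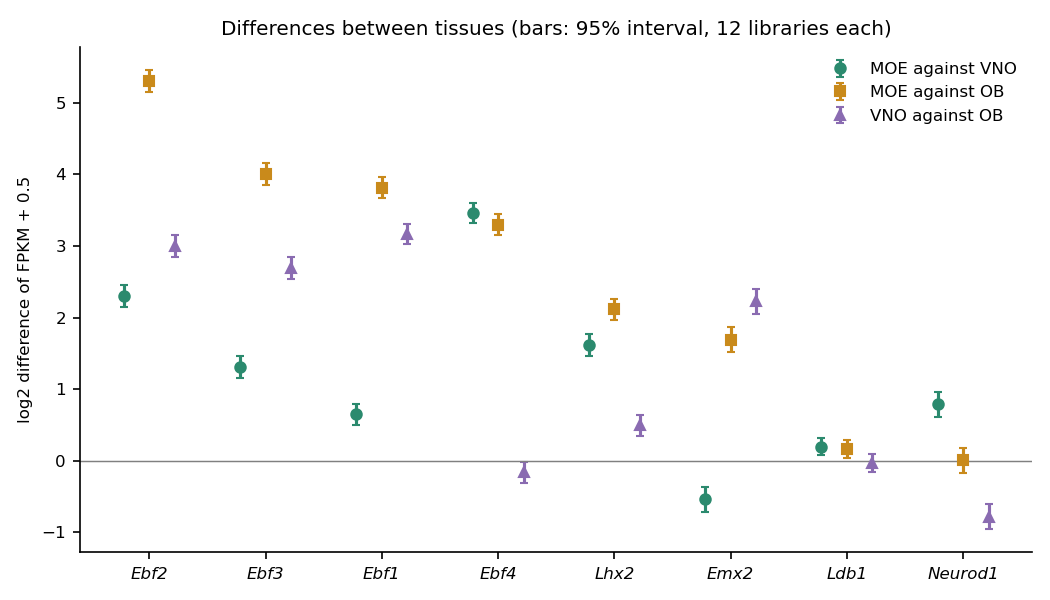
Difference in log2(FPKM + 0.5) between tissues (vertical axis) for the 8 genes tested, with 95% intervals from limma over 12 libraries per tissue. Ebf2 reaches 5.31 between MOE and OB, Ebf4 is near 0 between VNO and OB, Emx2 lies below 0 between MOE and VNO, and Ldb1 lies within 0.20 of 0 in each comparison.

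The makeup of the family also changed, and shares taken within a library do not change when the whole library is multiplied by a factor. Ebf2 led in all 12 MOE libraries with 41.7% ± 1.88 of the summed EBF level (SD), Ebf1 in all 12 VNO libraries with 48.3% ± 2.48, and Ebf4 in all 12 OB libraries with 49.5% ± 5.56. The Ebf2 share ran from 39.1% to 45.4% in MOE, 23.8% to 31.1% in VNO and 3.51% to 15.5% in OB. The Ebf4 share ran from 16.9% to 23.9% in MOE, 2.46% to 4.93% in VNO and 40.7% to 63.2% in OB. For Ebf1 the shares were 19.8% to 24.3% in MOE and 44.7% to 53.5% in VNO, with OB between 24.3% and 34.8%. In neither of Ebf2 and Ebf4 did the ranges of any 2 tissues overlap, and the Ebf3 share averaged 15.95% in MOE, 20.7% in VNO and 9.07% in the bulb. The OB shares rest on a small sum, with an estimated 4.07 to 24.4 fragments of Ebf2 per library.

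**Figure D4:**
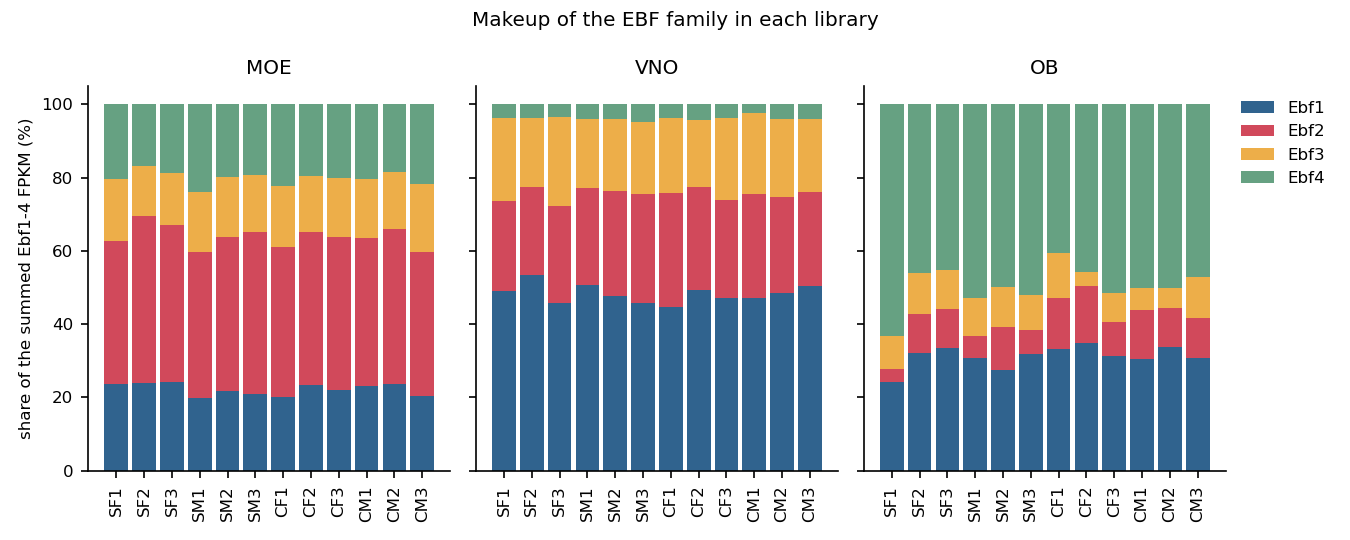
Share of the summed Ebf1 to Ebf4 FPKM (vertical axis, percent) taken by each gene, 1 bar per library and 1 panel per tissue. The leading gene is Ebf2 in every MOE library, Ebf1 in every VNO library and Ebf4 in every OB library.

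Other cells with Ebf1 were followed through marker lists. The 5 bone-forming genes were all higher in VNO than in MOE (5 of 5 passed). Their sums were 89.95 to 155 FPKM in VNO, 32.2 to 61.4 in MOE and 5.89 to 7.26 in OB. The OB sum was mostly Sp7, at a mean of 5.44 FPKM in OB, 4.73 in VNO and 1.53 in MOE. The other genes of this list had OB means of at most 0.522 FPKM. The pericyte list summed to 37.1 to 45.5 in VNO, 65.5 to 124 in MOE and 13.0 to 18.2 in OB, and while 4 of its 5 genes were lower in MOE than in VNO, the sum was mostly Rgs5, at a mean of 99.98 FPKM in MOE and 24.1 in VNO. Of the 6 B cell genes 2 passed the filter on low values, the sums were 3.74 to 5.53 in MOE, 1.43 to 3.21 in VNO and at most 0.471 in OB, and most of the sum was Vpreb3, at means of 3.26 FPKM in MOE and 1.09 in VNO. The B cell receptor genes Cd79a (0.102 in MOE and 0.135 in VNO, not tested) and Cd79b (0.763 and 0.789, not called) were close between both tissues. The 5 adipocyte genes, none of which passed the filter, summed to at most 3.74 FPKM in a VNO library, 0.643 in MOE and 0.295 in OB. No gene of these lists was at 0 in every library of a tissue. The part of these cells in the Ebf1 levels was not tested.

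Emx2 (chr19:59533180-59539847 on mm9) was the one tested gene of the set that was lower in MOE than in VNO. Its lowest, median and highest FPKM were 1.54, 2.25 and 3.13 in MOE. The same 3 values were 2.65, 3.44 and 5.06 for VNO and 0.232, 0.317 and 0.571 for OB. OB lay below both, and MOE overlapped with VNO. The limma difference was -0.54 between MOE and VNO (95% interval -0.71 to -0.36, adjusted p = 1.33e-06), 1.69 between MOE and OB (1.52 to 1.86, adjusted p = 1.31e-17) and 2.23 between VNO and OB (2.05 to 2.40, adjusted p = 1.13e-20).

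Neurod1 (chr2:79292798-79296793 on mm9) was low in every tissue and lowest in VNO. Its lowest, median and highest FPKM were 0.545, 0.904 and 1.18 in MOE. The same 3 values were 0.144, 0.335 and 0.464 for VNO and 0.572, 0.864 and 1.32 for OB. MOE and OB overlapped, and every VNO library lay below both. The VNO values rest on an estimated 6.0 to 18.0 fragments per library. Neurod1 was higher in MOE than in VNO by 0.79 (95% interval 0.61 to 0.96, limma adjusted p = 1.35e-09) and lower in VNO than in OB by a log2 difference of -0.78 (-0.96 to -0.61, adjusted p = 1.14e-09). MOE and OB differed by 0.00490 (-0.17 to 0.18, adjusted p = 0.964), and with quantile normalization by -0.25 (adjusted p = 0.0013), and the small difference turned below 0 without any 1 of 10 libraries.

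Neurog1 (chr13:56351860-56353524 on mm9) was close to the limit of detection. In MOE it had 0.0539 to 0.344 FPKM with a median of 0.136, an estimated 1 to 8 fragments per library, and in VNO 0 to 0.141 with 2 libraries at 0. In OB it was listed at 0 in all 12 libraries, where 3 fragments would have given 0.0957 to 0.189 FPKM. Rounded to whole fragments, 3 of 12 MOE libraries and 9 of 12 VNO libraries held fewer than 3. Over all 12 libraries these were an estimated 41.98 fragments in MOE and 18.98 in VNO. Neurog1 passed the filter on low values in no tissue and so has no test in the fits above. With no filter its log2 difference between MOE and VNO was 0.22 (95% interval 0.15 to 0.30, limma adjusted p = 4.91e-06), on a log scale that is narrow this close to 0 and from at most 8 fragments in a library. Against OB, where all libraries were at 0, no test is given.

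Most genes differed between tissues, so the calls of the members are read against all genes tested. Of the 8 members tested, 7 were higher in MOE than in VNO, where 47.9% of the 16009 genes tested were, and 1 (Emx2) was higher in VNO, where 34.6% were. Against OB 7 of 8 were higher in MOE (46.6% of genes were higher in MOE and 38.3% in OB) and Neurod1 did not pass. Between VNO and OB 5 were higher in VNO (38.3% of genes) and 2 in OB (45.8%). The median log2 difference of the members was 1.05 between MOE and VNO, 2.71 between MOE and OB and 1.36 between VNO and OB, against 0.13, 0.09 and -0.07 over all genes tested. Upper quartile scaling moved the median of all genes by -0.19 between MOE and VNO and by 0.22 between VNO and OB, and the part of all calls that was higher in MOE than in VNO from 58.1% to 45.5% and higher in VNO than in OB from 45.5% to 59.4%. Among the members only Ldb1, Neurod1 and Ebf4 changed sign under a scaling, as given above.

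Relatives and partners of the 9 genes were counted from lists. Of 10 other neuronal basic helix-loop-helix genes 4 passed the filter. Hes6, an inhibitor of the HES repressors, was higher in MOE than in VNO by 1.11 and the other 3 did not pass. Against OB, Neurod2 (-1.47), Bhlhe22 (-1.65) and Neurod6 (-0.93), factors of forebrain neurons, were lower in MOE and Hes6 was higher by 1.39. Between VNO and OB the same 4 genes passed, with Hes6 higher in VNO by 0.28 and Neurod2 (-1.47), Bhlhe22 (-1.62) and Neurod6 (-1.01) lower. Neurod2, Bhlhe22 and Neurod6 reached the filter of 0.5 FPKM in OB alone, at means of 0.902, 1.23 and 0.528. Their direction against OB was therefore set by the filter. Of 17 LIM domain genes and LDB1 partners 10 were tested, with 4 higher and 3 lower in MOE than in VNO, 7 higher and 3 lower in MOE than in OB, and 5 higher and 4 lower in VNO than in OB. Ssbp2, which encodes a protein that binds and stabilizes LDB1, was higher in MOE than in VNO by 1.9597, with means of 16.2 and 3.76 FPKM. The LIM homeodomain gene Isl2 was lower by -2.19 (0.0862 against 2.204 FPKM), and the LIM-only gene Lmo1 by -1.80 (2.01 against 8.19 FPKM). Lmo1 was also lower in MOE than in OB by -1.95, and Isl2 was higher in VNO than in OB by 2.40. Isl1 was higher in MOE than in OB by 3.18 and in VNO than in OB by 2.03, with means of 4.23, 1.61 and 0.0121 FPKM in the 3 tissues in that order. Lmo3 went the other way, by -3.98 between MOE and OB and -4.19 between VNO and OB, with a mean of 9.43 FPKM in OB. Zfp521, which encodes a zinc finger protein that binds EBF1, was lower in MOE than in VNO by -1.42 (0.789 against 2.94 FPKM), and higher in VNO than in OB by 1.57. Its relative Zfp423 was also lower in MOE than in VNO, by -0.37, and Emx1 was lower in MOE than in OB by -1.43 and in VNO than in OB by -1.46. Lmo3 and Emx1 reached the filter in OB alone and Isl2 in VNO alone, which likewise set their direction against that tissue. Zfp521 (0.15) and Zfp423 (-0.15) passed narrowly between MOE and OB, and Zfp423 was higher in VNO than in OB by 0.21. The limma adjusted p was 0.0378 for Zfp423 and 0.023 for Zfp521 in MOE against OB, 0.0048 for Zfp423 and 0.00195 for Hes6 in VNO against OB, and at most 1.44e-05 for the other differences given here.

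Stage markers of the sensory lineage moved as follows. All 10 mature olfactory neuron genes were higher in MOE than in VNO and than in OB, all 6 vomeronasal genes were lower in MOE than in VNO, and of 7 immature neuron genes 5 were higher and 2 lower in MOE than in VNO. Of the 6 genes of dividing progenitors 4 were tested, and all 4 were higher in MOE than in VNO. The 4 basal stem cell genes were higher in MOE than in OB, and 3 of them were lower in MOE than in VNO. All 5 sustentacular genes were higher in MOE than in VNO. All 5 bulb interneuron genes and all 4 projection neuron genes were lower in MOE than in OB. Of these, Th, Gad2, Dlx2, Tbx21, Tbr1 and Slc17a7 reached the filter of 0.5 FPKM in OB alone. The vomeronasal genes Tfap2e and Vmn2r2 reached it in VNO alone.

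Sex and housing were compared within each tissue, to ask whether the lineage factors differed between females and males or with housing. According to the paper, pups were born in the sex-combined cages, and the sex-separated cages stood in rooms of a single sex. Exposure to the other sex therefore cannot be told apart from mating, birth and room. The paper also lists lower RNA integrity for the sex-combined VNO libraries than for most sex-separated ones. None of the members passed in any of the 12 comparisons by limma, where 0% to 0.102% of all genes passed. In MOE 8 members were tested, in VNO 7 (all but Neurog1 and Neurod1) and in OB 5 (Neurod1, Lhx2, Ldb1, Ebf1 and Ebf4). For SF against SM, 0.102% of genes passed in MOE, 0.0722% in VNO and 0.0391% in OB, and for CF against CM 0.0436%, 0.0433% and 0.0469%. The sex by housing interaction passed for 0.0363%, 0% and 0.00782% of genes, and sex-separated against sex-combined libraries for 0.102%, 0% and 0.00782%. At an unadjusted p under 0.05 there were 3 member values, all for housing: Ebf1 and Ebf2 in VNO, where 7.57% of all genes were under it, and Ldb1 in OB, where 2.27% were. In VNO 75.2% of all genes were lower in sex-separated than in sex-combined libraries.

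Ebf1 in VNO had 7.42, 8.11 and 8.12 FPKM in the SF libraries, 8.61, 8.04 and 8.78 in SM, 9.66, 9.74 and 8.60 in CF, and 10.1, 9.004 and 8.44 in CM. The 6 sex-separated libraries were lower on average, and the ranges overlapped. By limma the log2 difference was -0.17 (95% interval -0.30 to -0.04, adjusted p = 0.629), with an unadjusted value of 0.0139. Ebf2 in VNO had 3.72, 3.62 and 4.73 FPKM in SF, 4.49, 4.83 and 5.69 in SM, 6.72, 5.55 and 4.85 in CF, and 6.09, 4.89 and 4.34 in CM, a difference of -0.24 (-0.46 to -0.01, unadjusted p = 0.0396, adjusted p = 0.634, limma). Ldb1 in OB had 9.26, 10.2 and 9.38 FPKM in SF, 11.6, 10.6 and 11.4 in SM, 8.82, 8.64 and 8.60 in CF, and 8.73, 8.09 and 11.1 in CM. Every sex-separated library was above every sex-combined library but CM3, and the difference was 0.20 (0.04 to 0.36, unadjusted p = 0.0188, adjusted p = 0.999985, limma).

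The intervals show how large a difference these libraries left room for. In MOE the female-male differences of the sex-separated libraries ran from -0.38 for Ebf4 to -0.02 for Ebf1, all 8 below 0, as were 54.8% of all genes. Ebf4 had 13.6, 7.99 and 12.4 FPKM in SF against 15.1, 14.7 and 13.9 in SM, with no overlap, and an interval of -0.81 to 0.05. The low value is SF2, and without SF2 and CM3 the difference of Ebf4 was -0.16 (limma unadjusted p = 0.170) and 3 of the 8 differences were above 0 (Ebf1 0.13, Emx2 0.11 and Lhx2 0.01). In VNO the intervals for SF against SM stayed between -0.60 and 0.44, and in OB between -0.51 and 0.30. The sex by housing interaction of Ebf4 in MOE was -0.49 (-1.10 to 0.11, adjusted p = 0.999, limma), and without SF2 and CM3 it was -0.18. Of the genes in all lists, Gad1 (which makes the transmitter GABA) was the only one that passed within a tissue, lower in VNO of SF than of SM mice by a log2 difference of -0.86 (limma adjusted p = 0.0296).

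**Figure D5:**
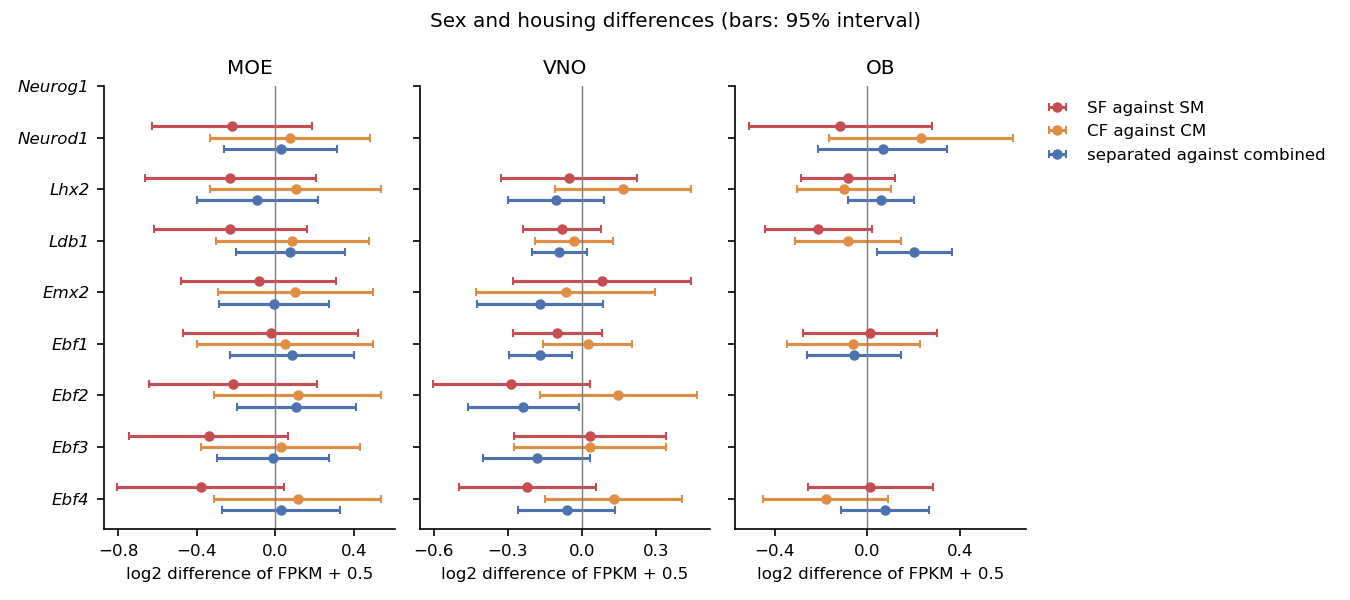
Difference in log2(FPKM + 0.5) (horizontal axis) with 95% intervals from limma for SF against SM, CF against CM and sex-separated against sex-combined libraries, for each tested gene in 3 tissues. Most intervals cover 0, and the 3 that do not are Ebf1 and Ebf2 in VNO and Ldb1 in OB for housing.

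Within MOE the members were also compared library by library with the 13756 other genes at a mean of at least 0.5 FPKM, by Pearson's r of log2(FPKM + 0.5) over 12 libraries. These correlations share the low libraries SF2 and CM3 and are given as a description, with r after leaving out the 2 libraries farthest from the median of the member. Closest to Ebf2 were Trio, Dip2c and Dnmt3a, the last a DNA methyltransferase (r = 0.98 to 0.97, and 0.93 to 0.94 after leaving 2 out). Closest to Ebf1 were Exoc6b, Ipmk and Arhgef12 (r = 0.97, then 0.91 to 0.93), and 28.3% of all genes had an r with Ebf1 over 0.8. This share was 18.9% for Ebf2, 13.2% for Ldb1, 4.94% for Neurod1, 3.51% for Ebf4, 2.30% for Lhx2 and 2.16% for Ebf3. Ebf3 was followed by Hs6st1, Pard6b and Ago1 (r = 0.97 to 0.94, then 0.76 to 0.86). Nearest to Ebf4 were Stoml3, a membrane protein of olfactory cilia with a mean of 276 FPKM, Ralyl and Brdt (r = 0.97 to 0.95, then 0.74 to 0.90). Lhx2 was followed by Cotl1, Atp6v0a1 and Rtl6 (r = 0.97 to 0.94, then 0.69 to 0.88), Ldb1 by Rnf220, Ccdc92b and Arhgap44 (r = 0.98 to 0.97, then 0.88 to 0.92), and Neurod1 by Rap2a, Klhl36 and Rab3a (r = 0.95, then 0.86 to 0.89). For Emx2 the closest genes were Zfp688, Timm50 and the odorant receptor gene Olfr1336, with lower values (r = 0.84 to 0.81, then 0.39 to 0.72), and 0.0291% of genes were over 0.8.

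Among the members themselves the highest r across the MOE libraries was that of Ebf3 and Ebf4 (r = 0.94, Spearman's rho = 0.81, then r = 0.73 after leaving 2 out). By rho, and by r after leaving 2 out, Neurod1 was higher with Ebf2 (r = 0.87, rho = 0.86, then 0.78) and with Lhx2 (r = 0.87, rho = 0.82, then 0.75). Neurod1 with Ldb1 was higher by rho but not after leaving 2 out (r = 0.89, rho = 0.82, then 0.65). The order of the pairs therefore rests on SF2 and CM3. Ebf1 and Ebf2 had an r of 0.90 (rho = 0.76, then 0.66). Ebf1 and Ebf4 had an r of 0.57, which was -0.09 without the 2 farthest libraries. With Omp the members' r ran from 0.39 for Emx2 to 0.88 for Ebf1, and after leaving 2 out from -0.09 for Emx2 to 0.56 for Ebf1.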

How the data were processed

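RNA from each pool was depleted of ribosomal RNA, made into stranded libraries and sequenced as read pairs. The submitters' processing notes name TopHat2 2.1.0, Cufflinks 2.2.1.0 and Cuffdiff and the build mm9. The authors deposited, for each library, the FPKM of each RefSeq transcript entry with its 95% confidence limits, and the setting of the strand for Cufflinks is not given in the sources used here. Entries were mapped to symbols by accession (99.7%) and summed by gene, with no further scaling. Genes with a failed estimate were left out (5 in MOE, 1 in VNO and 1 in OB, none of them named here).

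The limma package (version 3.58.1, R 4.3.3) was used on log2(FPKM + 0.5), which understates differences of low genes. The tissue fit held all 36 libraries as 12 groups, and genes reaching a mean of 0.5 FPKM in any tissue. It did not pair libraries of different tissues. A gene that reached this mean in 1 tissue alone entered because it was high there, which set its direction. Sex and housing were compared in 1 fit per tissue, for genes with a mean of at least 0.5 there. P-values were adjusted by Benjamini-Hochberg over all genes tested, with a threshold of 0.05, and measure the spread between pools. The fragments behind a value were estimated from FPKM and its confidence limits, assuming Poisson counting, and cover counting error only, because read pairs carried no molecular identifiers. Permutation tests of the start shares used scipy 1.17.1, and promoter patterns were matched in RefSeq sequences of GRCm38.p6. The limma fits were tested on simulated data.

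The genes, gene lists and tests were chosen with earlier results of these data known. Genes named beside the 9 were, per list, at most 3 with the smallest p among those that passed, the 3 genes most correlated with each member in MOE, and the reference genes Omp and Gap43 (a further reference gene is not reported here). Markers of other cells given by a single value were named after their values were seen. Alternatives were pseudocounts of 0.1 and 1, no filter, quantile and upper quartile scaling, the replicate number as a block, and leaving out each library. Leaving out MOE-SF2 and MOE-CM3 together was chosen after seeing the data.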

Additional observations from a re-analysis of the deposited data

How the results depend on the processing

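The pseudocounts, the lack of a filter, both scalings, the replicate block, the loss of any 1 library and the loss of MOE-SF2 and MOE-CM3 together left 7 to 9 members called between MOE and VNO, 7 to 8 between MOE and OB, 6 to 8 between VNO and OB, and 0 in every sex and housing comparison. Most genes were called between tissues too. In the main fit these were 13222, 13595 and 13458 of the 16009 genes tested, in the same order of comparisons. With no filter the counts were 9, 8 and 8 because Neurog1 entered, and its comparisons with OB are against libraries that are all at 0. With quantile normalization Neurod1 added a call between MOE and OB. Ldb1 added one between VNO and OB under both scalings, and lost its call between MOE and VNO with upper quartile scaling. Directions that turned were those of differences that were small in the main fit. With quantile normalization the log2 difference was -0.139 for Ldb1 (MOE against VNO), 0.305 for Ldb1 (VNO against OB), -0.247 for Neurod1 and -0.159 for Zfp521 (MOE against OB), -0.0953 for Zfp423 (VNO against OB), -0.0068 for Ebf4 (MOE CF against CM) and -0.0348 for Ebf2 (MOE sex-separated against sex-combined). With upper quartile scaling it was -0.0597 and 0.325 for the same Ldb1 comparisons, 0.0609 for Ebf4 (VNO against OB) and -0.0236 for Ebf2 in MOE by housing. These scalings also moved the median of all genes by -0.13 and -0.19 between MOE and VNO, and by -0.12 to 0.13 in the MOE comparisons of sex and housing. Leaving out 1 library gave Neurod1 between MOE and OB a difference of -0.0363 to 0.0454, below 0 for 10 libraries, and Ldb1 between VNO and OB one of -0.0542 to 0.000358, above 0 only without OB-CM3. The cause was not tested. The call of Zfp521 between MOE and OB was lost in 3 settings, and that of Zfp423 in 15.

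Of 36 same-numbered pairs across tissues, 9 had a correlation of deviations over 0.1 (range -0.31 to 0.23). Within tissues 3 of 18 pairs in MOE, 8 of 18 in VNO and 2 of 18 in OB did. Whether same-numbered pools of different tissues hold the same mice is not stated in the paper. Different tissues of the same mice need not deviate alike, so these correlations cannot decide it. With the replicate block 8, 7 and 7 members passed between MOE and VNO, MOE and OB, and VNO and OB, as without it, and Zfp423 between MOE and OB lost its call (adjusted p = 0.0523, limma). Of all genes 13138, 13530 and 13392 passed with the block, against 13222, 13595 and 13458 without it. Depth limits Neurog1 in all tissues, Neurod1 in VNO, and Ebf2, Ebf3 and Emx2 in OB.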
